A study of Mus musculus with 2 samples.

Results

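The genes described here encode the proteins of the cytosolic ribosome. They were chosen by symbol as every Rpl or Rps gene number, with the letters a, x, l or y allowed at the end, plus Rplp0, Rplp1, Rplp2 and Rpsa, and with pseudogenes marked -ps left out. This rule took 80 of the 31053 features, of which 49 belong to the large (60S) and 31 to the small (40S) subunit. At least 20 UMIs (unique molecular identifiers, each marking 1 captured mRNA molecule) over both libraries were found for 79 of them, and the remaining member, Rpl10l, had 0 UMIs in either library. Over all features, 16552 passed that minimum. Rps3a1, which also encodes a small subunit protein, has a symbol outside the rule and is given separately.

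Live cells from hearts of mice at postnatal day (P) 1 and P7 were captured in droplets, and the mRNA of single cells was sequenced in 1 library for each age. Each library came from 3 hearts of one litter, pooled, digested in collagenase II for 20 min at P1 and 45 min at P7, and sorted for exclusion of the dye 7-AAD. The methods call these hearts intact, and no genotype or treatment is given in the labels of either library. With 1 library per age there was no replicate and no test between ages. Intervals below are 95% intervals for counting error only, and age, litter, sex and digestion time cannot be told apart: Xist, which is expressed from the inactive X chromosome of female cells, had 57336 UMIs at P1 and 12 at P7, and 4 Y-linked genes had 2 and 18039. After barcodes with 200 to 8000 genes and at most 20% mitochondrial UMIs were kept, 4991 cells remained in the P1 library and 8511 in the P7 library (median 10875 and 10104 UMIs per cell). The libraries shared 13 barcodes among those cells. Classes were set by 1 gate gene each (Cdh5 for endothelial cells, Pdgfra for fibroblasts, Myh11 for smooth muscle, Kcnj8 for pericytes, Csf1r for myeloid cells, Cd3e for T cells, Cd79a for B cells and Upk3b for epicardial cells), in cells with a UMI of that gene and of none of the other gate genes. This placed 3308 cells at P1 and 6215 at P7 in a class.

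The ribosome translates mRNA into protein. Its small subunit reads the codons and its large subunit joins the amino acids, and cells make the ribosomal proteins (RPs) in matched amounts to assemble both around ribosomal RNA. RP mRNAs are among the most abundant in a growing cell and typically begin with a run of pyrimidines, the 5′ terminal oligopyrimidine (TOP) tract, through which mTOR and the RNA-binding protein Larp1 set their translation. Because this control acts on translation, the mRNA level measured here is not a measure of how much RP was made.

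The sequence around the gene start was therefore examined first. A promoter entry of RefSeq on GRCm38.p6 was found for 60 of the 80 members. A C followed by at least 4 bases that were each C or T, on the coding strand and starting within 10 bases of the annotated start, was present in 38 of these 60 members (63.3%), in 31 of 69 mitochondrial RP genes (44.9%) and in 9297 of all 27025 genes (34.4%). A gene counted if any of its promoter entries held such a run. By entry, a run was present in 40 of 72 member promoters (55.6%) and in 10093 of all 32851 (30.7%). The windows below give 20 bases before the start and 10 from it, on the strand of the gene, with each matched run in capitals. Where a gene had several entries, one with a match was preferred. The entry start can differ from the GENCODE gene start. The windows of Rpl35a, Rps23 and Rpl39 lie inside the gene and that of Rpl26 before it. Windows are shown for members that stood at the ends of the comparison by age (Rpl35a, Rps23, Rpl26) and for pairs of paralogs (Rps27 with Rps27l, Rpl39 with Rpl39l).
Rpl35a, chr16:33056462-33056491, plus strand: gcgcggcggggcttgCCTTCCTCTTTCCgc
Rps23, chr13:90923102-90923131, plus strand: acggggccttcggctgggcggggCTTCCCg
Rpl26, chr11:68901546-68901575, plus strand: gagatctcgcggcaacttacagaaccggaa
Rps27, chr3:90213639-90213668, minus strand: acaggatttccgCTTTCgCTCCTTTCCggc
Rps27l, chr9:66946066-66946095, plus strand: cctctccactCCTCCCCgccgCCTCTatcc
Rpl39, chrX:37085213-37085242, minus strand: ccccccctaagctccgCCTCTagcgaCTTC
Rpl39l, chr16:10170208-10170237, plus strand: cctagctcccaggCCTTTCCggatttccgg
The longest run of these windows, 13 bases, was in Rpl35a, Rps27, Rps27l and Rpl39 each held 2 runs, of which the last in Rpl39 goes on beyond the window, and Rpl26 held no match. A run at an entry start did not separate the members by their change with age. As entry starts can lie off the gene start, this split does not sort members by a TOP tract. The part of that tract was not tested. The log2 ratio of P7 over P1 had a median of -0.17 in the 35 members with a run and more than 1000 UMIs (range -0.33 to 0.08), and of -0.17 in the 22 without one (range -0.28 to 0.70).

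RP genes made up 18.2% of all non-mitochondrial UMIs in the P1 library and 16.3% in the P7 library. The log2 ratio was -0.16, and P7 minus P1 was -1.97 percentage points. Counting error was far smaller than this difference, but the log2 ratio was -0.10 when cells were thinned to 2000 UMIs and -0.074 as a mean of per-cell shares. Markers of other cells differed between the libraries. Per 1000000 non-mitochondrial UMIs (CPM), the 4 alveolar markers Sftpc, Ager, Cldn18 and Sftpa1 summed to 236 at P1 and 1.13 at P7, the cardiomyocyte markers to 522 and 149 and the red cell markers to 1856 and 2480. Their part in the shares was not tested. Without cells carrying a UMI of the lung genes Foxf1, Hoxa5 or Tbx4 the log2 ratio was -0.17. Those cells were not chosen by the markers above, so leaving them out cannot show the part of these markers. Per cell, the median share was 17.3% at P1 (quartiles 13.4% and 20.6%) and 15.7% at P7 (13.1% and 18.4%), so the distributions overlapped. A share under 10% was found in 726 cells at P1 (14.5%) and in 856 at P7 (10.1%). These cells were shallow, with a median of 2551.5 and 3184 UMIs against 12263 and 10914 in the rest. Leaving them out gave 18.8% at P1 and 16.7% at P7. As the cells were chosen by their low share, this had to raise both values.

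**Figure D1:**
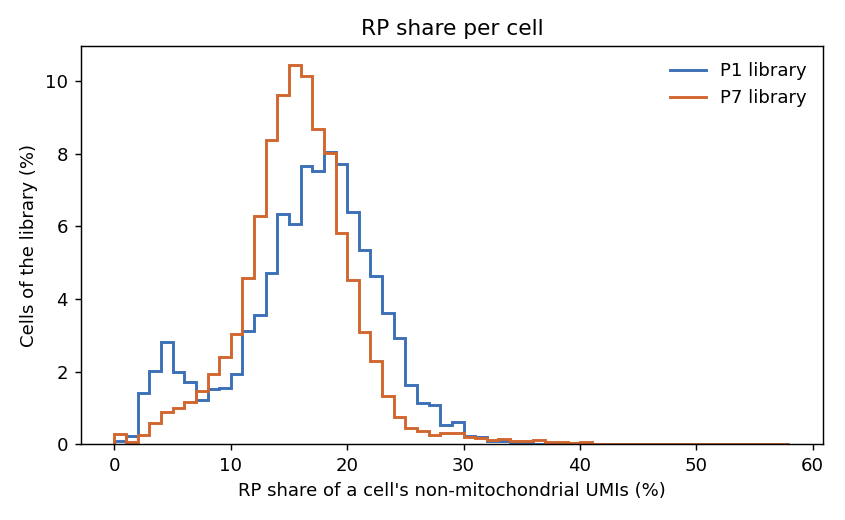
Distribution of the RP share over cells in bins of 1 percentage point (x axis, % of a cell's non-mitochondrial UMIs) as a percent of the cells of each library (y axis). The P7 curve peaks at a lower share than the P1 curve, with medians of 15.7% and 17.3%, and the P1 curve has a second, smaller peak below 10%.

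The difference between ages depended on depth. Among cells with 10000 to 20000 UMIs the share was 19.0% at P1 and 16.6% at P7, and among those with 5000 to 10000 UMIs it was 17.0% and 16.7%. Among cells with 2000 to 5000 UMIs the order turned, with 11.8% at P1 and 14.3% at P7. Within endothelial cells P1 was the higher in that bin too (14.6% and 13.8%), whereas in fibroblasts P7 was the higher (10.1% and 10.6%), as it was in fibroblasts with fewer UMIs.

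By class, the order of the shares was B cells, T cells, endothelial cells, myeloid cells, fibroblasts, pericytes, epicardial cells and smooth muscle at P1. B cells carried the highest summed RP share and smooth muscle the lowest at both ages. The T cell gate came next after B cells, but at P1 it held only 4 cells. Their median per cell was 17.5%, below that of endothelial cells at 18.3%. In endothelial cells the share was 19.3% at P1 (1619 cells) and 16.7% at P7 (3061 cells), a log2 ratio of -0.21. In fibroblasts it was 18.3% (1077 cells) and 16.0% (2066 cells), a log2 ratio of -0.19. The smooth muscle share was 14.1% (121 cells) and 12.1% (304 cells), a log2 ratio of -0.22. As means of per-cell shares the ratios of these 3 classes were -0.18, -0.13 and -0.082, and that of smooth muscle was -0.14 when cells were thinned to 2000 UMIs. Markers of other cells also differed between the smooth muscle gates, with red cell markers at 8.20 and 1894 CPM, cardiomyocyte markers at 962 and 136 CPM and pericyte markers at 2207 and 4190 CPM, and their part in its share was not tested. Pericytes had 17.2% (199 cells) and 14.9% (329 cells), a log2 ratio of -0.21, although this gate also held fibroblast markers, whose 4 genes summed to 6381 and 10008 CPM. Its pericyte markers summed to less, 4421 and 8593 CPM. Myeloid cells had 18.7% (225 cells) and 17.4% (183 cells), a log2 ratio of -0.11, which turned to 0.0089 when cells were thinned to 2000 UMIs and to 0.0057 as a mean of per-cell shares. Cell quartiles of P1 and P7 overlapped in each of these 5 classes.

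In the smaller classes the share was higher at P7 or the direction was undecided. B cells had an RP share of 24.6% at P1 (31 cells) and 27.0% at P7 (80 cells), a log2 ratio of 0.14 (0.12 to 0.15). It was 0.068 when cells with several gate genes were placed by the one with most UMIs and 0.23 when centred on the median gene. Only 4 cells at P1 carried Cd3e alone, with a share of 22.6%, against 26.6% in 183 cells at P7. The label of those 4 cells did not hold, because the T cell markers Cd3d, Cd3g, Trbc2 and Cd28 summed to 662 CPM and the fibroblast markers to 6949 CPM, whereas at P7 they summed to 7046 and 2502 CPM. Epicardial cells had 16.5% (32 cells) and 16.4% (9 cells), and the interval of their log2 ratio, -0.03 to 0.02, included 0. That ratio was below 0 under 12 of 16 alternatives, from -0.06 to 0.08. The epicardial gate held fibroblast markers at 12664 and 12074 CPM, above its epicardial markers at 2683 and 2815 CPM. The B cell gate also held fibroblast markers at 2716 and 2548 CPM, smooth muscle markers at 1457 and 96.8 CPM and pericyte markers at 589 and 59.0 CPM, and their part in its share was not tested.

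T cells at P7 were spread widely. The 62 cells with a UMI of Rag1, Rag2 or Dntt, which recombine and extend antigen receptor genes in immature lymphocytes, had an RP share of 22.9%, and the 121 cells without one had 29.1%. The medians per cell were 16.7% and 29.4%, with quartiles of 14.2% to 19.8% and 21.4% to 35.0% that did not overlap. Depth differed as well, with a median of 3514.5 UMIs in the former and 5433 in the latter, and its part in this difference was not tested.

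**Figure D2:**
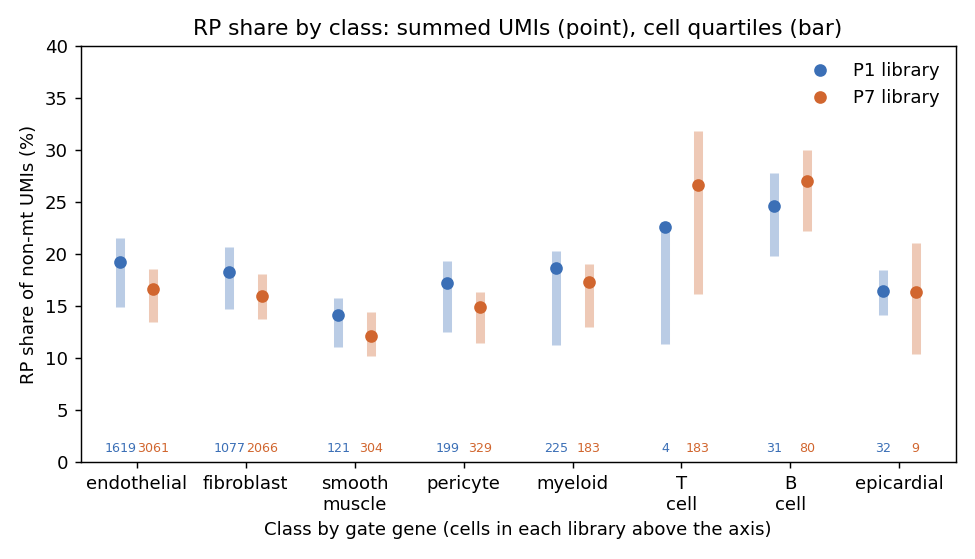
RP share of non-mitochondrial UMIs (y axis, %) in 8 classes set by gate genes (x axis), with the share over summed UMIs as a point, the quartiles over cells as a bar and the number of cells above the axis. Smooth muscle lies lowest (14.1% and 12.1%) and B cells highest at P1 (24.6%) and P7 (27.0%).

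Cells in cycle carried a lower summed RP share in most classes. With a UMI of Mki67 or Top2a as the mark of cycling, endothelial cells had 18.8% at P1 (274 cells) against 19.4% in the other 1345 cells, and 15.7% (538 cells) against 17.0% (2523 cells) at P7. Cycling fibroblasts had 17.5% against 18.5% at P1 and 14.8% against 16.2% at P7. Cycling smooth muscle cells had 13.9% (13 cells) against 14.1% at P1 and 11.0% (32 cells) against 12.3% at P7. Cycling pericytes had 16.7% (27 cells) against 17.4% at P1 and 12.8% (46 cells) against 15.3% at P7. The medians per cell had the opposite order at P1 in both classes, with 13.6% against 13.5% in smooth muscle and 16.3% against 15.9% in pericytes. Myeloid cells differed by library, with 20.5% in 36 cycling cells against 18.0% in the rest at P1, and 16.5% in 26 cells against 17.6% at P7. Cycling cells had more UMIs than others in these classes except smooth muscle at P1 (endothelial medians 13933 and 9382 at P1). Within 5000 to 20000 UMIs the order was kept in endothelial cells (18.0% and 19.8% at P1, 15.5% and 17.5% at P7).

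Single members differed by small and similar amounts. Of the 79 members measured, 75 had a lower CPM at P7 and 4 a higher one, with a median log2 ratio of -0.17 (0.5 counts were added to each sum). Over all 16552 genes the median was -0.01 and 51.3% were lower. Because the members take part in one total and share each library, their directions are not independent. Counting intervals lay below 0 for 71 members, above 0 for 4 and across 0 for 4, and 75 members lay within 0.2 of the members' median. A change past 1.5-fold in all cells was seen in 0 members toward lower values, where 15.3% of all genes passed, and in 2 members toward higher values, Rpl26 and Rpl39l, where 8.16% passed. Past a smaller change of 0.32 on the log2 scale there were 2 lower members, Rpl35a and Rpl3l (22.7% of all genes), and the same 2 higher ones (15.6%). Past 2-fold there were 0 lower members (8.98%) and 1 higher member, Rpl39l (4.04%). Rpl39l had 7 UMIs at P1 and 45 at P7, so it passed the minimum of summed UMIs through its P7 count. Its place among the higher members rests on few UMIs, and of these 2 members only Rpl26 was well counted in both libraries.

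**Figure D3:**
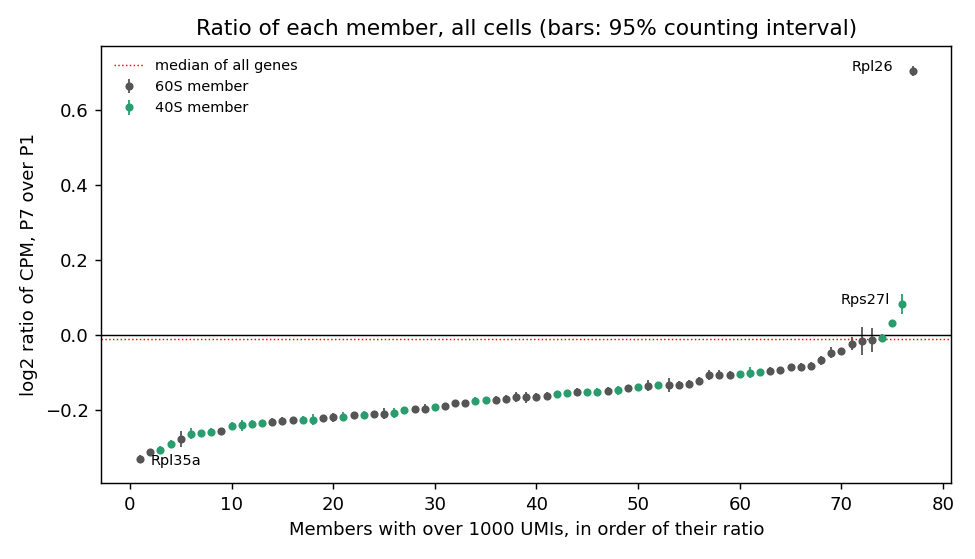
Log2 ratio of CPM, P7 over P1, over all cells (y axis) of the 77 members with more than 1000 UMIs in order (x axis), with 95% counting intervals. Apart from Rpl26 at 0.70, the members run from -0.33 (Rpl35a) to 0.08 (Rps27l).

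The largest drops among well counted members were in both subunits. Rpl35a, a large subunit protein, was at 2131 CPM in the P1 and 1695 CPM in the P7 library, a log2 ratio of -0.33 (-0.34 to -0.32). Rpl32, another protein of that subunit, was at 3745 and 3017 CPM (log2 ratio -0.31). Rps23, which lies at the decoding centre of the small subunit, was at 2363 and 1913 CPM (-0.31). Rps14, which takes part in maturation of the small subunit, was at 3094 and 2532 CPM (-0.29). These 4 members were also lower at P7 in each of the 5 classes with most cells at both ages. Rpl35a had log2 ratios of -0.35 in endothelial cells, -0.37 in fibroblasts, -0.36 in smooth muscle, -0.33 in pericytes and -0.18 in myeloid cells. As a share of RP UMIs alone, which removes the change of the whole group, Rps23 and Rpl32 were lower by more than 0.1 on the log2 scale in each of these 5 classes, and Rps29, Rps27l and Rpl26 higher by as much.

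Among the members with most UMIs, log2 ratios lay on both sides of the members' median of -0.17. Rpl13 was at 4935 and 4651 CPM (-0.09) and Rpl23 at 4542 and 3803 CPM (-0.26). Rps24 was at 4219 and 3587 CPM (-0.23) and Rps20 at 4102 and 3681 CPM (-0.16). All are core proteins of their subunit, and Rpl23 also binds the p53 regulator Mdm2. UMIs were counted at the 3′ end and not divided by transcript length, so the order is one of captured UMIs. Among members with more than 1000 UMIs the lowest was Rpl29, at 163 and 162 CPM. Reads of RP genes can also come from near-identical pseudogenes. Only features of the libraries were searched for such copies. For 20 members, 27 other features matched the end of the transcript closely. The UMIs of these copies equalled 0.51% of those of all 80 members at P1 and 0.49% at P7. Adding them shifted the log2 ratio of a member by 0.024 at the largest. That shift was in Rps18, for which its copies Gm10260 and Gm11361 held 22.7% and 24.0% of the sum.

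Rpl26 stood apart from every other well counted member. It encodes a large subunit protein near the peptide exit tunnel, which is modified by Ufm1 and has been described to bind p53 mRNA, and the gene (ENSMUSG00000060938) lies at chr11:68901583-68906989 on the plus strand of GRCm38. Its level was 1003 CPM at P1 (57141 UMIs) and 1633 CPM at P7 (154127 UMIs), 1.63-fold higher at P7, with a log2 ratio of 0.70 (0.69 to 0.72). The other 76 members with more than 1000 UMIs lay between -0.33 and 0.08. Rpl26 made up 0.55% of all RP UMIs at P1 and 1.00% at P7.

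This difference was present in each class. Rpl26 was at 1099 and 1664 CPM in endothelial cells (log2 ratio 0.60), at 953 and 1619 CPM in fibroblasts (0.76) and at 841 and 1264 CPM in smooth muscle (0.59). In pericytes it was at 914 and 1488 CPM (0.70) and in myeloid cells at 1205 and 1907 CPM (0.66). The small classes had the same direction, with 0.68 in B cells, 0.84 in epicardial cells and 0.79 in the T cell gate. It was the 1 member higher past 1.5-fold in each of the 5 largest classes, of 77 members tested in all of them, and 15 of 8328 genes (0.18%) met that condition. These 15 included the 4 Y-linked genes and Gm10320, which had 37 UMIs at P1 and 10777 at P7. Beside Rpl26, the others were Pianp, Wtip, Adat2, Gm12166, Cenpv, Akr1e1, Sqle, Ly6c1 and H2-T22. Over all cells their log2 ratios ran from 0.65 (Ly6c1) to 2.16 (Pianp). In contrast, 62 of the 77 members were lower in each of the 5 classes, where 9.22% of the 8328 genes were.

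Past 1.5-fold within a class, Rpl26 was usually alone. In endothelial cells 0 members were lower (11.0% of genes) and 2 higher, Rpl26 and Rpl3l (8.42%). Fibroblasts had 0 lower (13.1%) and 1 higher (8.57%), smooth muscle 0 (13.4%) and 1 (11.2%), and pericytes 0 (9.38%) and 1 (8.27%), in each case Rpl26. In myeloid cells 1 was lower, Rpl3l (8.73%), and 1 higher, Rpl26 (11.1%). Rpl3l passed on few UMIs, 7 at P1 and 17 at P7 in endothelial cells and 25 and 11 in myeloid cells.

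Depth and overlapping genes were checked for Rpl26. No other annotated gene overlapped it in GENCODE M21, and no feature was a near-identical copy of it. With each cell thinned to 2000 UMIs, it was detected in 80.2% of 4417 cells (P1) and 92.6% of 7784 cells (P7), with 1.84 and 3.08 UMIs per cell, whereas Rpl4, of like level at P1, was detected in 77.7% and 76.5%. This thinning left out 574 and 727 shallower cells. The difference between libraries in the sex and litter of the hearts cannot be told apart from age for this gene, and neither can strain, which the labels do not give.

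**Figure D4:**
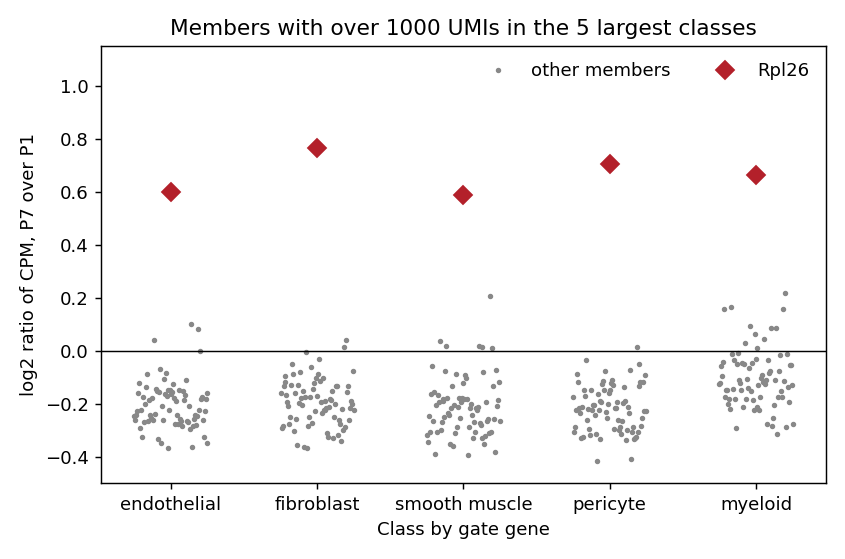
Log2 ratio of CPM, P7 over P1 (y axis), of the 77 members with more than 1000 UMIs in the 5 classes with most cells (x axis), with Rpl26 as a diamond and the others as points. Rpl26 lies between 0.59 and 0.76 and above the other members in each class.

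Rps27l, Rps29 and Rps21 followed Rpl26 at the upper end in all cells. Rps27l, a paralog of Rps27 that is a known p53 target, was at 307 and 325 CPM (log2 ratio 0.08, 0.06 to 0.11). Over the 5 largest classes the ratio of Rps27l ran from 0.01 in pericytes to 0.21 in smooth muscle. A value as near 0 as that of pericytes does not settle a direction. Its counterpart Rps27 was at 1466 and 1270 CPM (-0.21). Rps29, a small subunit protein that binds zinc, was at 2139 and 2186 CPM (0.03). Rps21, of the same subunit, was at 1612 and 1603 CPM (-0.01), with a counting interval of -0.02 to 0.004.

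Both subunits shifted in the same direction. The 46 large subunit members with more than 1000 UMIs had a median log2 ratio of -0.16 and the 31 small subunit members -0.19. Summed, there were 1.26 large subunit UMIs for each small subunit UMI at P1 and 1.28 at P7. This ratio was 1.35 and 1.36 in smooth muscle and 1.19 and 1.20 in myeloid cells. B cells were at 1.18 and 1.17.

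The 4 X-linked members lay within the range of the autosomal ones, although the libraries differed in sex. Rpl10, which joins the large subunit late in its maturation, was at 2445 and 2175 CPM (log2 ratio -0.17). Rpl36a was at 1118 and 967 CPM (-0.21), Rpl39, a small protein of the exit tunnel, at 2279 and 2119 CPM (-0.11) and Rps4x, which has a Y-linked copy in humans, at 3991 and 3726 CPM (-0.10). Their median of -0.14 compared with -0.17 over 73 autosomal members, and 530 X-linked genes of all kinds had a median of -0.02.

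Tissue-restricted paralogs were close to absent. Rpl3l, the striated muscle paralog of Rpl3, had 62 UMIs at P1 and 72 at P7, or 1.09 and 0.76 CPM (log2 ratio -0.51, -1.02 to 0.001), against 2153 and 1911 CPM for Rpl3. In the 91 cells at P1 with at least 1% of UMIs from the cardiomyocyte markers Tnnt2, Myh6, Ttn and Actc1, it was at 22.0 CPM (11.4 to 38.5), compared with 0.89 CPM in all other cells. In the 18 such cells at P7 it was at 128 CPM (51.3 to 263), from 7 UMIs, compared with 0.69 CPM. Rpl3 was not higher in those cells (1800 and 2156 CPM at P1). Outside the cells with these markers lay 50 of its UMIs at P1 and 65 at P7.

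Rpl3l was also seen outside cells with cardiomyocyte markers. Myeloid cells held 25 of its 62 UMIs at P1, in 22 cells, none of which was among the cells with 1% of cardiomyocyte marker UMIs, and 11 of 72 at P7, in 10 cells. Their levels were 11.2 and 6.27 CPM. Endothelial cells had 7 and 17 UMIs, of which 1 and 17 lay outside cells with 1% cardiomyocyte markers. Rpl39l, the paralog of Rpl39 known from testis, had 7 UMIs in 4 cells at P1 and 45 UMIs in 23 cells at P7, or 0.12 and 0.48 CPM (log2 ratio 1.87, 0.80 to 3.35), compared with more than 2000 CPM for Rpl39. Rpl10l, the paralog of Rpl10 known from testis, had 0 UMIs, which allows up to 0.053 CPM at P1 and 0.032 CPM at P7 (3 counts per library).

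RP genes outside the rule differed in their ratios. Rps3a1 was at 3709 and 3472 CPM (log2 ratio -0.10), and Rpl22l1, a paralog of Rpl22, at 697 and 578 CPM (-0.27). Rpl36al was at 264 and 241 CPM (-0.14), Rpl7l1 at 82.7 and 83.3 CPM (0.01) and Rps27rt, a near-identical copy of Rps27, at 88.3 and 68.5 CPM (-0.37). Rpl35a, the lowest of the well counted members, was at -0.33. That lies within the counting interval of Rps27rt, -0.42 to -0.31, so their order was undecided. Rpl7l1 differed in direction by class, with 0.26 in endothelial cells and -0.30 in fibroblasts.

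Members also differed between cell classes in their share of RP UMIs. Of the 74 members with at least 20 UMIs in each class of both libraries, the range over classes had a median of 0.41 on the log2 scale, averaged over the libraries, and wide ranges were found for Rps29 (0.88), Rpl36a (0.79), Rps2 (0.75) and Rps27 (0.73). Rps29 took its largest share in myeloid cells, at 1.76% of RP UMIs there at P1 and 2.20% at P7, compared with 1.05% and 1.23% in fibroblasts. This is 0.72 and 0.71 above the median of the 8 classes, so the libraries gave close values. Rpl36a was low in the same cells, at 0.43% and 0.42% compared with 0.63% and 0.61% in fibroblasts, 0.54 and 0.45 below the median of the classes.

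Rps2 and Rps27 differed between the lymphoid and muscle classes. Rps2, which lies at the mRNA entry of the small subunit, was at 0.81% and 0.75% of RP UMIs in B cells and 1.14% and 1.33% in smooth muscle. Rps27 had the opposite order, with 1.00% and 1.29% in B cells and 0.69% and 0.68% in smooth muscle. With only the 6 classes of at least 30 cells per library the median range was 0.35. Rps29, Rpl36a, Rps2 and Rps27 then had ranges of 0.80, 0.60, 0.66 and 0.73 and the ranks 1, 8, 5 and 3.

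**Figure D5:**
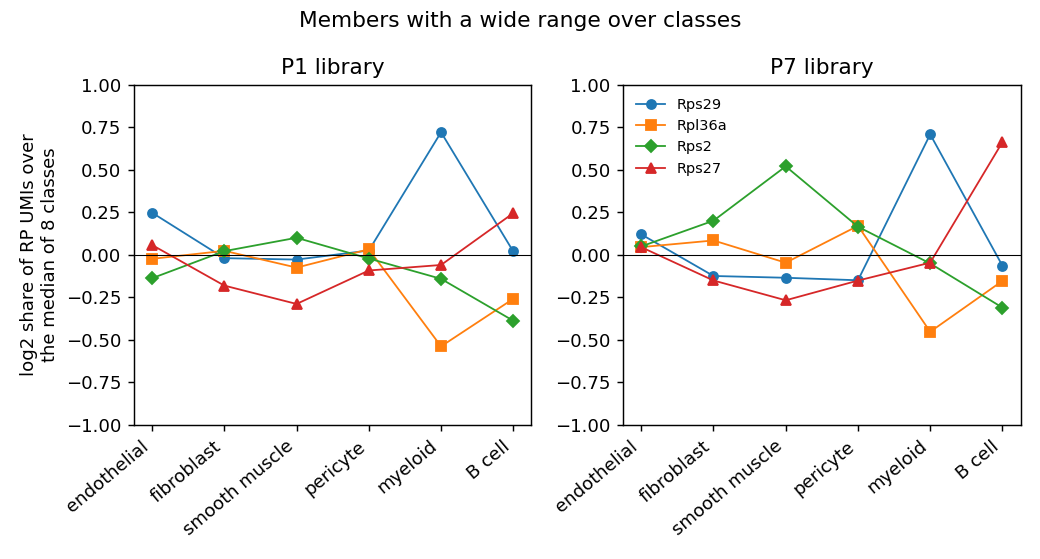
Share of RP UMIs of 4 members on the log2 scale relative to the median of the 8 classes (y axis) in the 6 classes with at least 30 cells per library (x axis), P1 left and P7 right. Rps29 is highest in myeloid cells (0.72 and 0.71), where Rpl36a is lowest, and Rps27 is highest in B cells.

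Genes that act with the ribosome were compared with the members. Fau, which encodes the small subunit protein Rps30, was at 3494 and 2881 CPM (log2 ratio -0.28), and Rack1, a signalling scaffold on the small subunit, at 1842 and 1681 CPM (-0.13). The 20 genes of elongation factors and other TOP mRNAs had a median of -0.13, with 17 lower and 0 past 1.5-fold, and the largest changes were in Hnrnpa1 (-0.32), an RNA-binding splicing factor, Npm1 (-0.31), a nucleolar chaperone, and Eif3e (-0.26), an initiation factor subunit. Over all genes the median was -0.01, with 51.3% lower, and 15.3% were lower and 8.16% higher past 1.5-fold. In endothelial cells the 20 genes had a median of -0.16 (0.04 over all genes) and in smooth muscle -0.24 (-0.01 over all genes).

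Mitochondrial RP genes, which serve a separate ribosome, had a median near 0 over all cells. Over 78 genes it was 0.02, with 33 lower and 45 higher and 0 past 1.5-fold in either direction. Mrps25 (0.41), Mrpl55 (-0.39) and Mrpl42 (-0.35) changed most. Of 77 measured per class, 54 were higher in endothelial cells (median 0.07), 59 in smooth muscle (0.15) and 46 each in pericytes and myeloid cells. In fibroblasts 58 of 77 were lower (-0.06). Of all genes, 51.1% were lower in smooth muscle, 49.2% in pericytes and 43.9% in myeloid cells. The 32 genes of ribosome biogenesis had a median of 0.03, but 26 of 32 were higher in endothelial cells (median 0.14) and 28 of 32 lower in fibroblasts (median -0.19). All genes leaned the same ways by less, with 44.3% lower in endothelial cells (median 0.04) and 56.4% lower in fibroblasts (median -0.05). Polr1a, the catalytic subunit of RNA polymerase I, differed most, at 13.0 and 8.27 CPM (log2 ratio -0.65), followed by Gnl3 (-0.38), a nucleolar GTPase, and Nop2 (0.30), an rRNA methyltransferase. Among 12 regulators of ribosome production the median was -0.01, and Mycn was at 15.4 and 25.1 CPM (0.71) while Myc was at 25.6 and 17.8 CPM (-0.52) and the S6 kinase gene Rps6kb2 at 20.3 and 16.4 CPM (-0.31).

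Genes that respond to tissue digestion were given beside these values because digestion time differed. Their 12 genes had a median log2 ratio of -0.25 in all cells, -0.08 in endothelial cells, -0.36 in fibroblasts and 0.15 in myeloid cells, with the largest changes in Ier3 (-0.68), Dusp1 (0.53) and Hspa1a (0.48). The part of digestion in the RP values was not tested.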

How the data were processed

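Per the labels, the authors processed each library with Cell Ranger 3.1.0 on mm10 (GRCm38) and deposited UMI counts per gene and barcode, without normalisation. Per-sample columns not used numbered 0. Here, only barcodes with 200 to 8000 genes and up to 20% mitochondrial UMIs were retained, and no doublet caller was run. An alternative left out the 6% of cells with most UMIs.

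UMIs were summed per library and class and divided by non-mitochondrial UMIs (CPM or share). Ratios are log2 of P7 over P1 with 0.5 counts added, for genes with at least 20 summed UMIs. Clopper-Pearson and exact conditional binomial intervals (95%) cover counting error only. Their coverage was tested on counts simulated with counting error alone, which cannot show how they hold under variation between cells, litters or libraries. Cells were not treated as replicates. Past 1.5-fold is the size rule, not a test.

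Members, lists and classes were chosen with earlier results of these data known. The conditions on the 5 largest classes and on Rag1, Rag2 and Dntt, the limits of a 10% share and 1% cardiomyocyte markers, the 0.1 limit on shares of RP UMIs and the sequences shown were chosen after values were seen. Genes were named by rule: the 5 largest ratios in each direction, the 5 highest levels, the 5 widest ranges over classes, X-linked members, members below the minimum, paralogs and the 3 largest changes of each other list. Some genes that met this rule are not reported here. Rpl29, Rps18, Rpl4 and the genes listed beside Rpl26 as higher in each of the 5 largest classes were named after values were seen.

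Copies were found with blastn 2.17.0 on GENCODE M21 transcripts, and promoter windows come from RefSeq. Python 3.11.15, numpy 2.4.6, scipy 1.17.1 and pandas 2.3.3 were used. Alternatives covered the mitochondrial limit, gates, lung-like cells, depth, denominator, scaling, weighting of cells, membership, minimum counts, added counts and fold.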

Additional observations from a re-analysis of the deposited data

Results flagged for a closer look

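In the T cell gate and the B cell gate the RP share was higher at P7, with log2 ratios of 0.24 and 0.14, while in the 5 classes with most cells it was lower. The T cell value rests on 4 cells at P1 whose fibroblast markers exceeded their T cell markers. The differences between classes were not tested, since there was 1 library per age.

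Barcodes with fewer than 200 genes, which enter no comparison of the report, held an RP share of 19.7% over 2253 barcodes at P1 and of 4.71% over 160 barcodes at P7. The share in the kept cells was 18.2% and 16.3%. These barcodes held 366851 and 121210 non-mitochondrial UMIs.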

How the results depend on the processing

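The log2 ratio of the RP share over all cells, -0.16, stayed below 0 under 16 alternatives. That ratio uses no class gates, so the gate of 2 UMIs and the gate by most UMIs could not move it. It was -0.17 with at most 10% mitochondrial UMIs, without lung-like cells (a Foxf1, Hoxa5 or Tbx4 UMI), with -ps symbols and further RP symbols added, without Rpl26 and without cells with a share under 10%. It was -0.16 with no mitochondrial limit, with 5000 to 20000 UMIs, with all UMIs as denominator and centred on the median gene, -0.15 without the 50 most abundant other genes and without the 6% of cells with most UMIs, -0.10 thinned to 2000 UMIs and -0.074 as a mean of per-cell shares.

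The unweighted mean over the 8 classes, -0.071, depended on classes with few cells. It reversed to 0.030 with a gate of 2 UMIs, which left 1 T cell at P1 and gave that class a ratio of 1.13. It was -0.066 with no mitochondrial limit, -0.063 without lung-like cells, -0.059 without cells with a share under 10%, -0.022 thinned, -0.085 centred, -0.0019 as a mean of per-cell shares, -0.077 without Rpl26 and -0.13 over the 6 classes with 30 cells in both libraries. The myeloid ratio, -0.11, reversed to 0.0089 when thinned and to 0.0057 as a mean of per-cell shares, and the cause was not tested. Endothelial, fibroblast, smooth muscle and pericyte ratios stayed below 0 under 16 alternatives each, with smooth muscle between -0.25 and -0.082. Rpl26 over all cells lay between 0.69 and 0.73 under 12, among which the gate settings could not move it either.

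The count of lower members past the fold, 0, was 1 with no mitochondrial limit, without lung-like cells and when thinned. It was also 1 without the 6% of cells with most UMIs and with no minimum, and 2 past 0.32 on the log2 scale. With no minimum, that member was Rpl10l, which had 0 UMIs in either library. Its log2 ratio of -0.73 came only from the added counts and unequal library totals, and is not a measured drop. The count of higher members, 2, was 1 when thinned, past 2-fold and without Rpl26. The copies, Rpl26, low-share and 6-class alternatives were chosen after seeing the data. No paired analysis was possible because each age had 1 library. That design limits the comparison of every member, and Rpl3l and Rpl39l rest on fewer than 100 UMIs per library.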
